A study of Mus musculus with 6 samples.

Results

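Transcripts of 10 genes of chromosome segregation were followed: Aurkb, Birc5, Incenp and Cdca8 of the chromosomal passenger complex, the checkpoint genes Bub1, Bub1b, Ttk and Mad2l1, and Plk1 and Cdc20. They were chosen by gene name, with earlier results of these data known. Counts of called members therefore describe these genes and are no independent evidence. All 10 were found among the 29626 genes of the counts table. RNA was sequenced from sorted CD4+CD8+ double-positive (DP) thymocytes of 8-week-old mice. The control group was 3 Kansl1fl/fl littermates without Cre, and the KANSL1-deficient group was 3 Kansl1fl/fl mice with CD4-Cre. All 6 mice therefore carry the floxed Kansl1 alleles, and Cre is present only in the KANSL1-deficient group, so an effect of Cre and one of Kansl1 loss cannot be told apart. KANSL1 belongs to the NSL complex, the chromatin regulator built around the histone acetyltransferase KAT8, and CD4-Cre is expressed from regulatory sequences of the Cd4 gene. The labels number the mice of a group, and p-values measure the spread between these samples.

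The chromosomal passenger complex joins the kinase Aurora B (Aurkb) to the scaffold INCENP, survivin (Birc5) and borealin (Cdca8). It corrects faulty attachments of chromosomes to the spindle and later acts in cytokinesis. The spindle assembly checkpoint holds cells in metaphase until every kinetochore is attached: the kinase MPS1 (Ttk) starts the signal, BUB1 and BUBR1 (Bub1b) act at the kinetochore, and MAD2 (Mad2l1) and BUBR1 hold back CDC20, the activator of the anaphase-promoting complex (APC/C). PLK1 is a kinase of mitotic entry, the kinetochore and cytokinesis. Most of these transcripts peak in G2 and mitosis. Most DP thymocytes are small non-dividing cells, and a minority are blasts that still divide. In sorted cells measured as a bulk, a larger share of dividing cells and more RNA per dividing cell cannot be told apart.

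All 10 transcripts were higher in the KANSL1-deficient cells, each at least 2-fold and each with no overlap between the groups. The log2 fold changes ran from 1.06 for Mad2l1 to 2.47 for Ttk, with a median of 1.78, where the median over all tested genes was -0.02. All 10 passed the threshold of an adjusted p under 0.05 (edgeR quasi-likelihood test, Benjamini-Hochberg adjustment over 15353 genes). Over all tested genes 3.85% were called higher, 3.62% among the 7436 genes whose mean abundance lay within the range of the 10 transcripts, and 1.5% were called and at least 2-fold higher; in either direction 6.76% were called. At an unadjusted p under 0.05 (edgeR), at least 3311 and fewer than 3654 of the 15353 tested genes passed in either direction. DESeq2 called the same 10 higher, beside 8.6% of the genes it tested, and limma-voom called 9 of them (all but Ttk), beside 4.65%. For 14.6% of the tested genes all KANSL1-deficient libraries lay above all control libraries, and for 28.5% the groups did not overlap in either direction. The count of 10 was 6 without control replicate 2, 6 without KANSL1-deficient replicate 2, and 8 or 9 without any other library.

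**Figure D1:**
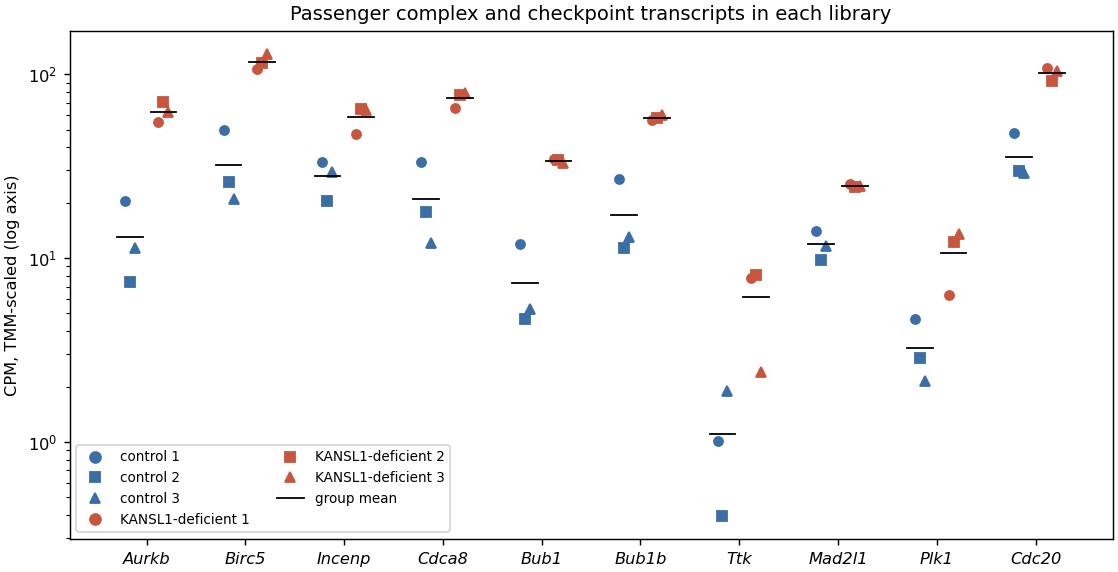
Abundance of each of the 10 transcripts in every library, in CPM (counts scaled to library size with TMM factors), on a log axis; symbols mark the replicate number, colours the group, and black bars the group means. In every gene the 3 KANSL1-deficient libraries sit above the 3 control libraries, and control replicate 1 is the highest control in 9 of 10 genes.

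The libraries held 19361968 to 22459830 counts. Kansl1 itself was read at 189 to 230 CPM (counts scaled to library size) in the control and 146 to 188 CPM in the KANSL1-deficient libraries, and its log2 fold change of -0.33 ± 0.14 (SE) did not pass the threshold (edgeR, adjusted p = 0.171). These counts cover the whole gene and do not single out its deleted part. The summed level of 8 DP markers, among them Cd4, Cd8a, Cd8b1 and Rag1, was 12605 to 13094 CPM in the control and 14849 to 16529 CPM in the KANSL1-deficient libraries. Markers of the double-negative stage, which precedes the DP stage and divides, summed to 98.3 to 111 and 124 to 159 CPM. Of the 7 tested double-negative markers 0 passed the threshold with edgeR or limma-voom, 1 did with DESeq2, and 1 had an unadjusted p under 0.05. Macrophage and dendritic cell markers summed to 10.7 to 16.7 CPM in the control and 9.14 to 15.6 CPM in the KANSL1-deficient libraries, erythroid markers to 4.18 to 9.87 and 4.48 to 5.16 CPM, and thymic epithelial markers to 8.36 to 10.6 and 9.47 to 12.97 CPM. Of their 5, 5 and 2 tested genes 0 passed with edgeR, DESeq2 or limma-voom, and 1, 0 and 0 had an unadjusted p under 0.05. Zbtb7b, Foxp3, Pax5, Foxn1 and Hbb-bt, which mark other cell types or stages, had at most 5 counts each over all 6 libraries. The part of these other markers in the results below was not tested. With library totals in place of TMM scaling log2 fold changes moved by a median of -0.15 over all tested genes, and the share of called genes that were higher was 27.7% in place of 56.9%, while the count among the 10 transcripts stayed at 10.

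Promoter sequences from RefSeq (GRCm38.p6; 250 bases before to 50 after the annotated start) were found for 8 of the 10 genes: Birc5, Cdca8, Bub1, Bub1b, Ttk, Mad2l1, Plk1 and Cdc20. They are shown because these genes moved together, and because promoters of genes of late cell cycle are known for 2 short elements: the cell cycle homology region (CHR), TTTGAA or its variant TTCGAA, bound by the MuvB complexes, and CCAAT, bound by NF-Y. Windows of 150 bases are printed for Cdca8 (chr4:124936888-124937037, minus strand), Cdc20 (chr4:118437314-118437463, minus strand), Bub1 (chr2:127831830-127831979, minus strand), Ttk (chr9:83834569-83834718, plus strand) and Mad2l1 (chr6:66535101-66535250, plus strand). Each runs 5′ to 3′ on the strand of the gene from 120 bases before the start. Capitals mark the CHR words and CCAAT on either strand. A CCAAT on the other strand appears in the printed sequence as ATTGG. The CHR word on the other strand, that of Ttk, appears as TTCAAA.
Cdca8: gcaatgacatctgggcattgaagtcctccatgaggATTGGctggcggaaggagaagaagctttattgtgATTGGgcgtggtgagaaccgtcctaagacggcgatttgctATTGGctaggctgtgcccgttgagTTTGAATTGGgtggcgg
Cdc20: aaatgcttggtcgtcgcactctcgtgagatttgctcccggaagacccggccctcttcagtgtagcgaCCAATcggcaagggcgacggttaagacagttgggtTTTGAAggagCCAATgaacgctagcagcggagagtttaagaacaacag
Bub1: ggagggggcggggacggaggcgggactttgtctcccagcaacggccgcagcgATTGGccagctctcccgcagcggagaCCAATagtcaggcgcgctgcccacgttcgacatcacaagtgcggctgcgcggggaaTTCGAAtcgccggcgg
Ttk: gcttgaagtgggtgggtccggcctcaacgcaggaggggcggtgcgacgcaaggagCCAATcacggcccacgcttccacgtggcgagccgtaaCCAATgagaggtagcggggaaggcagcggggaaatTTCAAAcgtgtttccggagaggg
Mad2l1: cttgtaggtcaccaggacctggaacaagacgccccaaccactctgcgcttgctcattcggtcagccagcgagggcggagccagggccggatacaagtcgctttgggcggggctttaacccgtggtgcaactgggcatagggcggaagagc

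TTTGAA was found, on either strand, in 5 of the 8 promoters, and in 17.9% of all 32851 promoter windows. The match lay 18 bases before the start in Cdc20, and 7, 13, 30 and 40 bases after it in Ttk, Cdca8, Plk1 and Bub1b. TTCGAA was found in 2 promoters, Bub1 (14 bases after the start) and Bub1b (188 before), and in 1.56% of all windows. CCAAT was found in 6 of 8 and in 37.4% of all windows, up to 4 times in Cdca8, where the last copy shares a base with TTTGAA. A CHR match together with CCAAT was found in Cdca8, Bub1, Bub1b, Ttk, Plk1 and Cdc20, 6 of 8, and in 7.52% of all windows. Birc5 and Mad2l1 held neither element in this window. GGGCGG, the GC box, was found in 7 of 8 (35.7% of all windows), 3 times in Mad2l1. The E2F-type words TTCCCGC and TTGGCGC were in 0 of 8 (4.6% and 2.45% of all windows). Both strands were searched, and a match is a description of the letters.

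Within the passenger complex, all 4 subunits rose, with log2 fold changes from 1.08 for the scaffold to 2.26 for the kinase. Aurkb, the kinase (ENSMUSG00000020897, GRCm39 chromosome 11, 68936473 to 68942490, plus strand), was read at 20.4, 7.39 and 11.3 CPM in control replicates 1 to 3 and at 54.8, 70.5 and 62.2 CPM in KANSL1-deficient replicates 1 to 3. The lowest KANSL1-deficient library was 2.68 times the highest control. Mean Aurkb was 13.1 ± 6.67 CPM in control and 62.5 ± 7.86 CPM in KANSL1-deficient cells (SD, n = 3), a log2 fold change of 2.26 ± 0.30 (SE; edgeR adjusted p = 0.003875). Birc5, which encodes survivin, the subunit that reads a phosphorylated histone at the centromere (ENSMUSG00000017716, chromosome 11, 117740077 to 117746569, plus strand), was read at 49.9, 25.9 and 21.0 CPM in control and 106, 116 and 128 CPM in KANSL1-deficient libraries. Control replicate 1 was well above the other controls, and the lowest KANSL1-deficient library was 2.13 times its level. The log2 fold change of Birc5 was 1.86 ± 0.27 (SE; edgeR adjusted p = 0.00438).

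Cdca8, which encodes borealin (ENSMUSG00000028873, chromosome 4, 124812258 to 124833104, minus strand), went from 33.4, 17.8 and 12.1 CPM in control to 65.3, 77.1 and 78.9 CPM in KANSL1-deficient libraries. Its log2 fold change was 1.81 ± 0.30 (SE; edgeR adjusted p = 0.00648), close to that of Birc5, whose product binds borealin. The gene 9930104L06Rik lies on the opposite strand and shares 2264 bases with Cdca8; it was read 218, 219 and 536 times in control and 313, 147 and 102 times in KANSL1-deficient libraries. No source used here says whether counting took the strand into account, so reads in the shared stretch could belong to either gene. The other overlaps among the 10 were smaller: Cdc20 shares 53 bases with Elovl1 on the opposite strand, and Incenp shares 1208 bases with Gm50324, which had at most 9 counts in a library. Incenp, the scaffold that holds the complex together and activates Aurora B (ENSMUSG00000024660, chromosome 19, 9849660 to 9876915, minus strand), was read at 33.5, 20.5 and 29.6 CPM in control and 47.0, 64.8 and 64.2 CPM in KANSL1-deficient libraries. Its groups were close: the lowest KANSL1-deficient library, replicate 1, was 1.40 times the highest control. Incenp had a log2 fold change of 1.08 ± 0.21 (SE; edgeR adjusted p = 0.0137). It missed the threshold without control replicate 2 (0.88, adjusted p = 0.0591) and without KANSL1-deficient replicate 2 (1.00, adjusted p = 0.0692).

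The 4 checkpoint transcripts rose by different amounts. Bub1, a kinase that marks the centromere for the passenger complex (ENSMUSG00000027379, chromosome 2, 127643036 to 127673785, minus strand), was read at 11.9, 4.67 and 5.28 CPM in control and 34.5, 34.1 and 33.0 CPM in KANSL1-deficient libraries. The KANSL1-deficient libraries lay within 1.05-fold of each other, while the highest control was 2.56 times the lowest. The log2 fold change was 2.22 ± 0.32 (SE; edgeR adjusted p = 0.00444). Bub1b, the BUB1 relative BUBR1 of the complex that inhibits the APC/C (ENSMUSG00000040084, chromosome 2, 118428692 to 118472072, plus strand), was read at 27.1, 11.4 and 13.02 CPM in control and 56.3, 57.9 and 59.7 CPM in KANSL1-deficient libraries. It had the same order of control libraries relative to each other as Bub1, with replicate 1 on top, and a log2 fold change of 1.76 ± 0.28 (SE; edgeR adjusted p = 0.00629).

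Mad2l1, the checkpoint protein that binds CDC20 (ENSMUSG00000029910, chromosome 6, 66512374 to 66524204, plus strand), was read at 14.1, 9.77 and 11.7 CPM in control and 25.1, 24.4 and 24.7 CPM in KANSL1-deficient libraries. The groups were tight and apart, and the log2 fold change of 1.06 ± 0.21 was the smallest of the 10 (SE; edgeR adjusted p = 0.0151). It missed the threshold without control replicate 2 (0.92, adjusted p = 0.0649), without KANSL1-deficient replicate 1 (1.05, adjusted p = 0.0654) and without KANSL1-deficient replicate 2 (1.07, adjusted p = 0.0624).

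Ttk, the kinase MPS1 (ENSMUSG00000038379, chromosome 9, 83716742 to 83754442, plus strand), was the least counted of the 10, with 21, 9 and 43 reads in control and 159, 172 and 48 reads in KANSL1-deficient libraries. These are 1.02, 0.396 and 1.89 CPM in control and 7.82, 8.11 and 2.40 CPM in KANSL1-deficient libraries. KANSL1-deficient replicate 3 was far below the other libraries of its group and near control replicate 3: their 95% Poisson intervals, which cover counting error only, were 1.77 to 3.19 and 1.37 to 2.55 CPM. The log2 fold change of Ttk was the largest and the least precise of the 10, 2.47 ± 0.61 (SE; edgeR adjusted p = 0.0332). The call depended on several libraries. It was lost without control replicate 1 (2.39, adjusted p = 0.0851), control replicate 2 (2.04, 0.107), KANSL1-deficient replicate 1 (2.25, 0.125) or KANSL1-deficient replicate 2 (2.21, 0.131), and without control replicate 3 the value was 3.10 (adjusted p = 0.0333). With limma-voom the adjusted p was 0.0561.

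Plk1 and Cdc20, which act on entry into and exit from mitosis, both rose, Cdc20 with the smaller error. Cdc20 (ENSMUSG00000006398, chromosome 4, 118290098 to 118294549, minus strand) was read at 47.9, 29.8 and 29.1 CPM in control and 109, 91.3 and 104 CPM in KANSL1-deficient libraries. Its groups were 1.91-fold apart at the nearest libraries. Cdc20 had the smallest p of the 10 (log2 fold change 1.51 ± 0.20, SE; edgeR adjusted p = 0.00368). Plk1 (ENSMUSG00000030867, chromosome 7, 121758662 to 121769096, plus strand) was read at 4.69, 2.86 and 2.16 CPM in control and 6.30, 12.2 and 13.5 CPM in KANSL1-deficient libraries. KANSL1-deficient replicate 1 lay closer to control replicate 1 than to the other libraries of its own group. The log2 fold change of Plk1 was 1.72 ± 0.39 (SE; edgeR adjusted p = 0.0247). It missed the threshold without control replicate 2 (1.62, adjusted p = 0.0973), control replicate 3 (1.49, 0.0732), KANSL1-deficient replicate 2 (1.61, 0.103) or KANSL1-deficient replicate 3 (1.52, 0.0861). In the authors' deposited table all 10 genes are marked as changed, with log2 fold changes from 1.06 for Mad2l1 to 2.47 for Ttk.

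**Figure D2:**
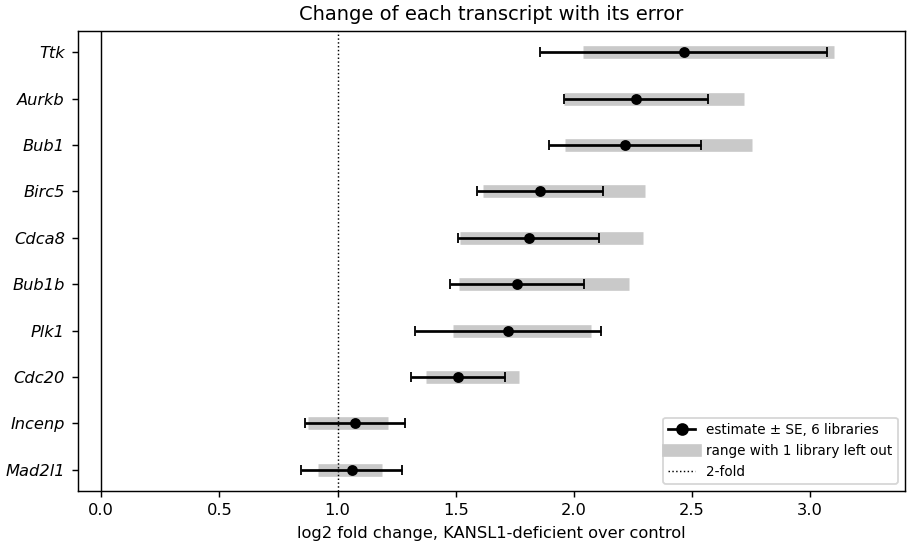
Log2 fold change of each transcript, KANSL1-deficient over control, with its standard error (black) and the range of the estimate when each library is left out in turn (grey); the dotted line is a 2-fold change. Ttk (2.47 ± 0.61) has the widest error, and Incenp (1.08) and Mad2l1 (1.06) lie lowest.

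The ratio of highest to lowest library was larger in the control than in the KANSL1-deficient group in 10 of 10 genes. For Plk1 the values were close, 2.18 in control and 2.14 in KANSL1-deficient libraries. The share of all tested genes with a larger ratio in control was not computed, so this count has no background beside it. The ratio ran from 1.45 (Mad2l1) to 4.77 (Ttk) in the control group and from 1.03 (Mad2l1) to 3.37 (Ttk) in the KANSL1-deficient group. Control replicate 1 was the highest control for 9 genes, and control replicate 3 for Ttk. Relative to the control mean of log2 CPM, the median over the 10 genes was 0.66 in control replicate 1, -0.34 in control replicate 2 and -0.27 in control replicate 3. The same medians were 1.79, 1.95 and 1.97 in KANSL1-deficient replicates 1 to 3. The summed level of the 10 transcripts was 244, 130 and 137 CPM in control and 512, 556 and 571 CPM in KANSL1-deficient libraries. Without control replicate 1, 9 of the 10 passed the threshold.

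**Figure D3:**
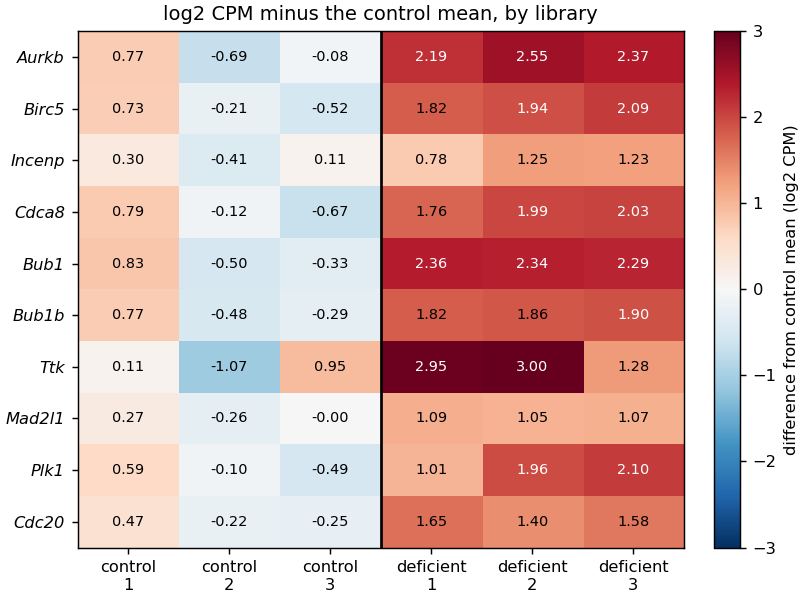
Difference of each transcript from its control mean on the log2 CPM scale, by gene (rows) and library (columns), with the value in each cell; red is above and blue below the control mean. Control replicate 1 is above the control mean in all 10 genes (median 0.66), and Ttk in KANSL1-deficient replicate 3 (1.28) departs from the other libraries of its group (2.95 and 3.00).

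Levels per gene length were compared with the FPKM values the authors deposited (fragments scaled to gene length and library size). The order of genes depends on the lengths these values imply, from 1868 bases for Cdc20 to 8390 for Mad2l1. Whether these lengths match the transcripts in these cells was not tested. By mean control CPM, Mad2l1 (11.9) lay above Bub1 (7.30) and Plk1 (3.24). In KANSL1-deficient cells it lay above Plk1 (24.7 and 10.7 CPM) and below Bub1 (33.9). In control cells Cdc20 had the highest level of the 10, 20.1 ± 6.30 FPKM, followed by Birc5 at 10.01 ± 4.93 FPKM, and their libraries did not overlap. Below them Incenp (6.79 ± 1.72), Aurkb (4.68 ± 2.46), Cdca8 (4.30 ± 2.31) and Bub1b (4.24 ± 2.20) each overlapped the next gene in the order, as did Bub1 (1.77 ± 1.01) and Plk1 (1.55 ± 0.65). Mad2l1 (1.49 ± 0.30) lay above Ttk without overlap, and Ttk was lowest at 0.236 ± 0.162 FPKM (SD, n = 3 for each gene). In KANSL1-deficient cells Cdc20 (51.4 ± 4.54 FPKM), Birc5 (32.6 ± 3.79) and now Aurkb (20.1 ± 2.67) led the order without overlap, and Incenp (12.9 ± 2.40) moved from the third to the fifth place, where it overlapped Cdca8 (13.5 ± 1.59) and Bub1b (12.9 ± 0.65). Bub1 (7.37 ± 0.02), Plk1 (4.62 ± 1.72), Mad2l1 (2.79 ± 0.05) and Ttk (1.17 ± 0.60) followed in the same order as in control.

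Shares of the summed FPKM of the 10 genes are a description; since they add up to a fixed total, a gene that rose less than the others takes a smaller share. Aurkb was 6.19% to 9.30% of the summed FPKM of the 10 genes in control and 11.6% to 14.2% in KANSL1-deficient libraries. Bub1 was 2.64% to 3.68% and 4.31% to 4.95%. Incenp, which rose less, was 10.4% to 16.3% in control and 6.79% to 8.91% in KANSL1-deficient libraries, and Mad2l1 was 2.26% to 3.34% and 1.67% to 1.87%. These 4 shares did not overlap between the groups, and they were singled out after their values were seen.

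The ratios of 3 pairs were set within each library, where scaling between libraries does not enter. The log2 ratio of Aurkb to Incenp was -0.16, -0.92 and -0.83 in control and 0.78, 0.68 and 0.51 in KANSL1-deficient libraries, so the kinase transcript was below its scaffold per length in all 3 control libraries and above it in all 3 KANSL1-deficient libraries. The means differed by 1.29 on the log2 scale, a 2.44-fold change of the ratio. Without division by length, Aurkb was below Incenp in KANSL1-deficient replicate 3 as well (62.2 and 64.2 CPM). The log2 ratio of Bub1 to Bub1b was -1.21, -1.31 and -1.33 in control and -0.73, -0.79 and -0.88 in KANSL1-deficient libraries, a difference of 0.48. Cdc20 stood above Mad2l1, whose product restrains it, by 3.93, 3.78 and 3.48 in control and 4.28, 4.07 and 4.24 in KANSL1-deficient libraries on the log2 scale, a difference of 0.47. The height of this gap depends on the implied lengths of 1868 and 8390 bases, and the mean control CPM were 35.6 and 11.9. The difference between the groups was the same 0.47 with CPM. None of the 3 ratios overlapped between the groups, and the share of other gene pairs without overlap was not computed. The ratios restate the unequal fold changes of their genes given above. For each ratio, an exact two-sided permutation test gave p = 0.1 (0.1 adjusted over the 3). This is the smallest p that 3 against 3 libraries allow, so this test cannot reach 0.05.

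**Figure D4:**
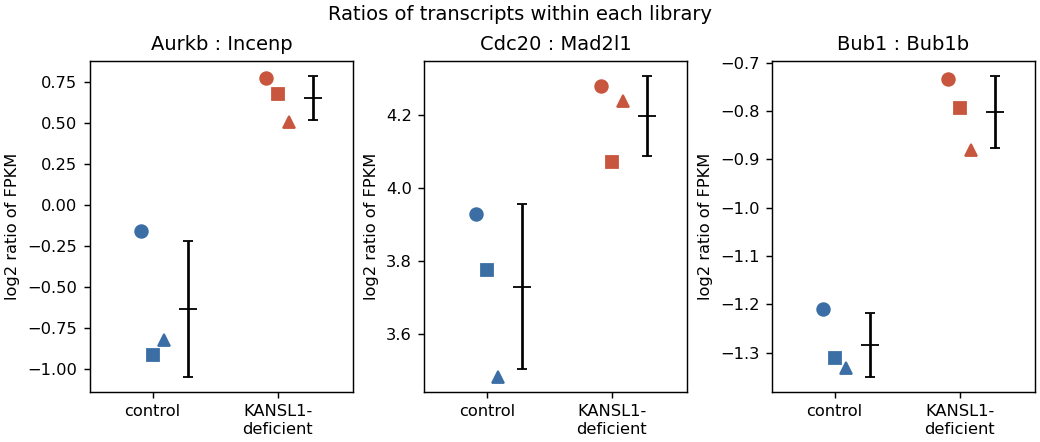
Log2 ratio of FPKM within each library for Aurkb over Incenp, Cdc20 over Mad2l1 and Bub1 over Bub1b; points are libraries (symbols by replicate number), bars are mean ± SD of 3, and the vertical axes differ between panels and do not start at 0. In each panel the 3 KANSL1-deficient libraries sit above the 3 control libraries, with differences of the means of 1.29, 0.47 and 0.48.

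The pathway around these genes was described with 6 lists, which were also chosen with earlier results of these data known. The lists hold 80 genes in all, of which 79 were tested. Of these, 19 were higher and 1 lower in KANSL1-deficient cells, beside 3.85% higher and 2.91% lower over all tested genes, and their median log2 fold change was 0.36. The calls were unevenly spread. Among recruiters, effectors and related kinases, 6 of 13 tested genes rose and 0 fell (also 0 lower with DESeq2, limma-voom or an unadjusted p under 0.05), with a median of 0.88. They were led by Kif2c, the kinesin that Aurora B regulates at the centromere, from 3.64 ± 0.957 to 18.8 ± 2.27 CPM (SD, n = 3 each; log2 fold change 2.37, edgeR adjusted p = 0.00308). Kif20a, the kinesin that carries the complex to the midzone, went from 7.72 ± 1.45 to 21.3 ± 0.117 CPM (SD, n = 3 each; log2 fold change 1.47). Racgap1 of the central spindle had a log2 fold change of 1.52, and Tpx2, the activator of Aurora A, one of 2.26, which was not called without control replicate 2 (1.99, edgeR adjusted p = 0.0533) and was 3.07 without control replicate 1. The recruiters Haspin, Sgo1 and Sgo2a, named after their values were seen, did not pass with edgeR. Their log2 fold changes were -0.08, 1.11 and 1.26 (edgeR adjusted p = 0.927, 0.0661 and 0.140). Sgo1 passed with DESeq2 (adjusted p = 0.0112) and limma-voom (0.0337).

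Of 16 other checkpoint and kinetochore signalling genes, 7 rose and 0 fell (median 0.89); 1 was lower at an unadjusted p under 0.05, and 0 were with DESeq2 or limma-voom. The NDC80 complex, which binds microtubules at the kinetochore, gave 3 of the 4 with the smallest p: Nuf2 (2.40 ± 0.40, SE; edgeR adjusted p = 0.00698), Spc25 (1.75 ± 0.30) and Spc24 (1.73 ± 0.32) on the log2 scale. Spc24 was not called without control replicate 2 (1.53, adjusted p = 0.0592), and Nuf2 was 3.07 without control replicate 1. Spdl1, which recruits dynein to kinetochores, went from 14.9 ± 3.29 to 41.1 ± 10.7 CPM (SD, n = 3 each; log2 fold change 1.46). Beside them, and named after their values were seen, stand the checkpoint partners Bub3 (80.3 ± 10.6 and 89.1 ± 4.98 CPM) and Mad1l1 (403 ± 38.2 and 448 ± 60.4 CPM; SD, n = 3 each), whose log2 fold changes of 0.15 ± 0.14 and 0.15 ± 0.13 (SE) did not pass (edgeR adjusted p = 0.600 and 0.562). The difference between these and the 10 transcripts was not tested.

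Among the 14 APC/C subunits 0 rose and 1 fell with edgeR, and the median was 0.07. Anapc10, a subunit that helps bind substrates, fell by 0.94 on the log2 scale, from 37.0 ± 5.21 to 19.3 ± 4.91 CPM (SD, n = 3 each; edgeR adjusted p = 0.0288). It was not called without control replicate 2 or without KANSL1-deficient replicate 1, 2 or 3 (adjusted p = 0.09995, 0.08795, 0.0593 and 0.0898). Higher at an unadjusted p under 0.05 was 1 subunit, Anapc5 (log2 fold change 0.40, named after its values were seen), which DESeq2 called (adjusted p = 0.0229) and limma-voom did not. Among APC/C activators, ubiquitin-conjugating enzymes, inhibitors and substrates 4 of 9 rose and 0 fell (median 1.06; 0 lower at an unadjusted p under 0.05, with DESeq2 or with limma-voom): the cyclins Ccnb1 (2.29 ± 0.38, SE) and Ccna2 (1.901 ± 0.26), the inhibitor Fbxo5 (1.06 ± 0.18) and the enzyme Ube2c (1.799 ± 0.35) on the log2 scale, with edgeR adjusted p = 0.00647, 0.00388, 0.00689 and 0.0128. Ube2c was not called without control replicate 2 (1.66, adjusted p = 0.0740) or KANSL1-deficient replicate 2 (1.81, 0.0503), and was 2.40 without control replicate 1.

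Of 13 phosphatase genes that oppose checkpoint kinases, Cdca2, which brings protein phosphatase 1 to chromatin, was the 1 that rose with edgeR (9.88 ± 3.41 to 30.1 ± 8.57 CPM; SD, n = 3 each; log2 fold change 1.61, edgeR adjusted p = 0.0101), and 0 fell (median 0.19). It was not called without KANSL1-deficient replicate 2 (1.37, adjusted p = 0.0603). In this list 3 genes were higher with DESeq2, 2 with limma-voom and 3 at an unadjusted p under 0.05. Of 14 regulators of G2/M transcription, Tfdp1, the partner of E2F proteins, was the 1 that rose with edgeR, from 62.0 ± 6.55 to 114 ± 11.3 CPM (SD, n = 3 each; log2 fold change 0.88, edgeR adjusted p = 0.00644), and 0 fell (median 0.41). In that list 8 genes were higher at an unadjusted p under 0.05, 6 with DESeq2 and 3 with limma-voom. Over all tested genes at least 3311 passed the unadjusted cutoff in either direction (edgeR). The share of higher genes alone at that cutoff was not computed. The unadjusted counts of all lists and markers are therefore a description. In these last 2 lists 0 genes were lower at an unadjusted p under 0.05, with DESeq2 or with limma-voom. Foxm1 and Mybl2, which act on late cell cycle promoters and are named here after their values were seen, had log2 fold changes of 1.02 ± 0.32 and 1.06 ± 0.37 (SE) that did not pass with edgeR (adjusted p = 0.0800 and 0.107) but did with DESeq2 (0.0167 and 0.0342) and limma-voom (0.0434 and 0.0468). Over the 6 lists the number of called genes was 12 without control replicate 2, 12 without KANSL1-deficient replicate 2, and 31 with DESeq2.

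**Figure D5:**
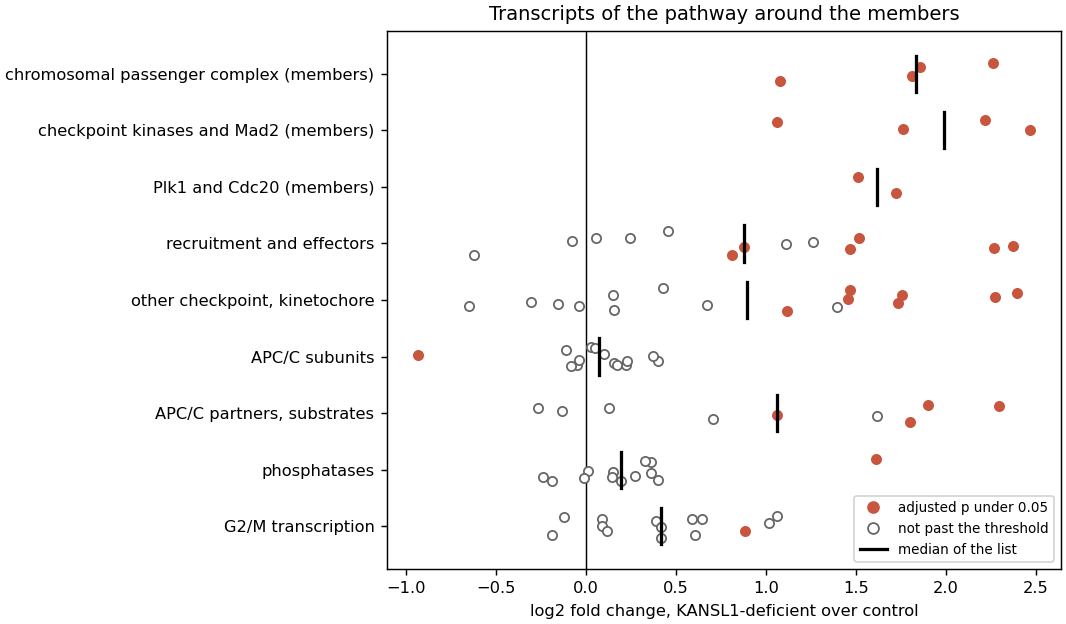
Log2 fold change of each tested gene, KANSL1-deficient over control, in the 3 groups of the 10 transcripts and the 6 surrounding lists; filled points passed an adjusted p under 0.05, open points did not, and black bars are medians. APC/C subunits centre near 0 (median 0.07), recruiters and kinetochore genes spread from below 0 to over 2, and the 10 transcripts lie at 1.06 or above.

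The genes outside the set whose log2 CPM followed the mean standardised profile of the 10 most closely over the 6 libraries were Top2a (Pearson r = 0.999), Rrm2 (0.998), Gm10392 (0.998), Nusap1 (0.997) and Ccne1 (0.997). These correlations are a description: the 6 libraries fall into 2 groups and share the high control replicate 1. Top2a encodes a topoisomerase that untangles chromosomes, Rrm2 a subunit of ribonucleotide reductase, Nusap1 a spindle protein and Ccne1 cyclin E1. The log2 fold changes of these 5 ran from 0.51 for Gm10392, which did not pass (edgeR adjusted p = 0.151), to 2.48 for Nusap1. Within the set, Aurkb and Bub1 followed the mean of the other 9 most closely (r = 0.996 and 0.995 over 6 libraries), and Ttk (0.786) and Plk1 (0.920) least.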

How the data were processed

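RNA from DP thymocytes was poly(A)-selected, per the labels' protocols. STAR, featureCounts and DESeq2 with build GRCm39 are named in the submitters' processing notes, without versions. The authors deposited whole-number counts per gene, FPKM values, and their own comparison, which per the file headers holds p-values, log2 fold changes, a fold ratio and a mean normalized signal. Gene lengths implied by counts and FPKM were the same in all 6 libraries. The counts were tested with edgeR 4.0.16 in R 4.3.3 (quasi-likelihood test, TMM scaling, default filter with minimum count 10 and minimum total 15, robust dispersions, Benjamini-Hochberg adjustment, threshold 0.05). CPM are scaled by TMM factors, and the SE is the log2 fold change divided by the square root of F. Library totals were 19361968 to 22459830 counts. The test was checked on simulated data. Ratios used FPKM with an exact permutation test over 20 assignments. Groups and replicate numbers came from the labels, and no library was left out.

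Genes were named by rule: the 10 members, Kansl1, up to 4 called genes with the smallest p per pathway list, and the 5 genes of most similar profile. Outside this rule, Haspin, Sgo1, Sgo2a, Bub3, Mad1l1, Anapc5, Foxm1 and Mybl2 were named after their values were seen. Some marker genes and the genes that overlap a member were also named. The members and lists were chosen with earlier results of these data known. Alternatives were other scalings and filters, DESeq2 1.42.0, limma-voom (limma 3.58.1), limma on log2 FPKM plus 1 or 0.1, a block for the replicate number, and leaving out each library in turn. Promoter windows are RefSeq's in GRCm38.p6; all other coordinates are the deposited ones in GRCm39. Some marker genes are not reported here.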

Additional observations from a re-analysis of the deposited data

How the results depend on the processing

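All 10 transcripts stayed higher in KANSL1-deficient cells under each of the 15 alternatives that tested them (14 for Ttk, which the filter of at least 5 CPM in 3 libraries removes), and Aurkb, Birc5, Cdca8, Bub1, Bub1b and Cdc20 passed the threshold in all of them. The number past the threshold was 10 of 10, and 6 to 9 with 1 library left out. It was 8 with log2 of FPKM plus 1 and 7 with log2 of FPKM plus 0.1; on the first scale the log2 fold changes of Ttk, Mad2l1 and Plk1 were 0.78, 0.61 and 1.11. Over all genes 1038 passed, 1729 without a filter, 2040 with DESeq2, and 283 to 811 with 1 library left out. In the 6 pathway lists 20 passed, 31 with DESeq2, and 12 to 24 with 1 library left out. Kansl1 did not pass in any of them. The 3 ratios kept their direction throughout.

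The correlations of same-numbered libraries' deviations from their group means were -0.05, -0.02 and -0.10. Between differently numbered libraries they ran from -0.03 to 0.07. Such values from so few libraries cannot decide whether a control mouse and a KANSL1-deficient mouse with the same number belong together. With the replicate number as a block 406 genes passed, 8 of the 10 transcripts (Ttk and Plk1 not, adjusted p = 0.102 and 0.0812 with edgeR) and 18 of the pathway genes. Ttk and Plk1 had the fewest counts of the 10, with 9 to 43 and 49 to 97 per control library; the part of depth in their lost calls was not tested.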
